A study of Homo sapiens with 6 samples.

Results

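Long non-coding RNA genes carried 293 of the 9974 peaks in 4 peak lists of RNA crosslinked to tagged HSPA1A and tagged HSPA8. The members were chosen by position: a peak had to lie on chromosomes 1 to 22, overlap a RefSeq GRCh38 gene of biotype lncRNA by at least 1 bp, and overlap no gene of biotype tRNA, rRNA, snRNA, snoRNA, pseudogene or protein_coding. Chromosome 21 was used only from position 9000000 upward. That left 6245 peaks from which members could come, called autosomal peaks in what follows. The peak values played no part in the choice.

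FLASH-seq recovers RNA that ultraviolet light has crosslinked to a purified protein. The series holds 6 such libraries. All came from HEK293 Flp-In T-Rex, a long-established line of human embryonic kidney cells that carries a transgene under a tetracycline-inducible promoter. In 3 groups of 2 biological replicates, cells were given 1 µg/ml tetracycline to express GFP, HSPA1A or HSPA8 with a 3xFLAG-HBH tag. HSPA1A is the stress-inducible HSP70 chaperone and HSPA8 its constitutive relative. The bait is therefore an induced, tagged protein in every library. No peaks of the GFP bait were analysed here, and the values that follow have no control bait beside them.

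Long non-coding RNAs are transcripts that are not translated into a protein. Many are made by RNA polymerase II, spliced and kept in the nucleus, and many are scarce. Some are structural parts of nuclear bodies, some are precursors of microRNAs or of small nucleolar RNAs, and most annotated ones have no known role.

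The sequences of the member peaks that could be read are shown here because they tell what kind of letters lie under peaks near an annotated transcript start. Of the 293 member peaks, 7 lay wholly inside a RefSeq promoter window (250 bases before to 50 after a gene start, GRCh38.p14), in 4 lncRNA genes. For LOC124904704 and MIR663AHG the window was at the annotated gene start. The CYKILR peak lay in the window of a later transcript start of that gene, 40352 bp from the gene's own start, and on the opposite strand. The LOC124903672 peak lay in the window of its protein-coding neighbour ATXN2L, opposite to its own gene's strand. Capitals mark the peak, lower case up to 15 bases of flank, and each is written 5′ to 3′ on the strand of the peak. They are LOC124904704 in HSPA1A replicate 1 (chr19:35575596-35575676, plus strand), MIR663AHG in HSPA1A replicate 1 (chr20:26209184-26209234, minus strand), LOC124903672 in HSPA1A replicate 2 (chr16:28822915-28822973, plus strand) and CYKILR in HSPA1A replicate 1 (chr19:36309421-36309525, minus strand).
LOC124904704: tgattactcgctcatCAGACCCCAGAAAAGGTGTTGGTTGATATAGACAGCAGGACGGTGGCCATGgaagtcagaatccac
MIR663AHG: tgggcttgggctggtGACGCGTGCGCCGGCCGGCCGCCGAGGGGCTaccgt
LOC124903672: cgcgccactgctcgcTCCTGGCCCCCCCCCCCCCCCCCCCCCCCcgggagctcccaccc
CYKILR: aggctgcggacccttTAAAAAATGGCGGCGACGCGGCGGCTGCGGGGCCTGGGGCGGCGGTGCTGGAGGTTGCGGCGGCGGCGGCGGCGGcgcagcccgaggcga

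The LOC124904704 peak, of 52.9% GC, was found in all 4 lists, and each of the other 3 peaks in 1 list, with scores of 5 to 8. The 3 single-list peaks were made of low-complexity or GC-rich letters. The MIR663AHG peak was 87.1% GC, the LOC124903672 peak held an unbroken run of 23 C, and the CYKILR peak held GGC 12 times and was 78.7% GC. The CYKILR peak shared at least 1 stretch of 20 bases with 22 of the 35116 promoter windows, its own included. No 20-base stretch of the LOC124904704 peak occurred in a promoter window other than its own. The search covered promoter windows alone, so it cannot tell whether these letters occur elsewhere in the genome. As background, its letters resemble part of the large ribosomal subunit RNA. No ribosomal sequence was held in the tables used, so the resemblance was not measured, and a part played by reads from ribosomal RNA was not tested.

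Mature microRNAs are shown as well, because peaks on 2 host genes reached one. Capitals mark the seed, bases 2 to 8 of the RefSeq sequence.
hsa-miR-663a: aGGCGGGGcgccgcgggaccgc
hsa-miR-19b-3p: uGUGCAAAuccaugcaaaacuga

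The single MIR17HG peak, in HSPA1A replicate 1 with a score of 5, ran from 91351242 to 91351267 on chromosome 13 and took in all 23 bases of hsa-miR-19b-3p. MIR17HG is the primary transcript of a cluster of growth-promoting microRNAs. The MIR663AHG peaks reached 14 of the 22 bases of hsa-miR-663a in HSPA1A replicate 1 and 17 of 22 in HSPA8 replicate 1, from the 3′ end. The first covered 0 of the 7 seed bases and the second 3. In replicate 2 of both baits the peak lay on the hairpin gene MIR663A but outside the mature sequence. The seeds of the 2 microRNAs differ.

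Member peaks were a small share of every list. They numbered 96 of 2048 autosomal peaks in HSPA1A replicate 1 and 82 of 1352 in replicate 2, against 88 of 2093 in HSPA8 replicate 1 and 27 of 752 in replicate 2. As shares these were 4.69% (Wilson 95% interval 3.85 to 5.69), 6.07% (4.91 to 7.47), 4.20% (3.43 to 5.15) and 3.59% (2.48 to 5.17). Over all autosomal peaks both HSPA1A lists lay above both HSPA8 lists, by as little as 0.483 percentage points within replicate 1 and by 2.47 within replicate 2. The mean share was 5.38 ± 0.974% for HSPA1A and 3.90 ± 0.434% for HSPA8 (SD, n = 2), a difference of 1.48 percentage points. The exact two-sided permutation test gave p = 0.333, the smallest that 2 replicates against 2 allow. The order was lost among peaks at or above the median score of each list, where HSPA8 replicate 1 (4.15%) exceeded both HSPA1A lists (3.57 and 3.85%). HSPA8 replicate 2 stood lowest there, at 0.8065%. The cut was the median over all peaks of a list, not over its autosomal peaks alone. In HSPA8 replicate 2 only 752 of 2040 peaks were autosomal, and 2 members passed. A member with a score of 20 did not pass there, although the median score of the autosomal peaks was 13. With equal numbers of top-scoring peaks HSPA8 replicate 1 (4.12%) exceeded HSPA1A replicate 1 (3.59%). Both settings gave p = 1 in the exact permutation test. The difference was 0.266 with equal numbers of top-scoring peaks, 0.790 without HSPA1A replicate 2 and 0.944 without peaks known to lie opposite to the gene's strand. The intervals cover counting error only and treat neighbouring peaks as independent, which they are not.

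**Figure D1:**
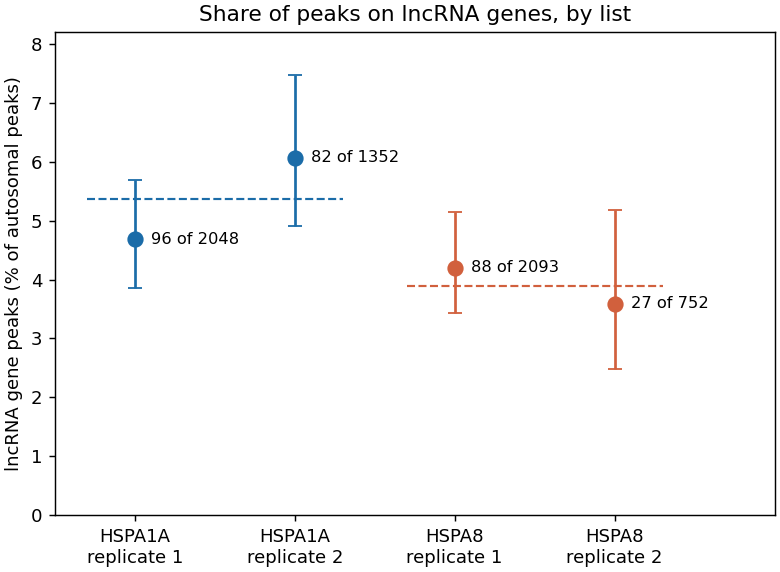
Member peaks as a percentage of the autosomal peaks of each list. Points are lists, bars are Wilson 95% intervals over peaks, and dashes are the bait means. The HSPA1A lists stand at 4.69 and 6.07% and the HSPA8 lists at 4.20 and 3.59%, and the intervals overlap between neighbours.

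The peaks fell on 74 lncRNA genes in each of 3 lists and on 22 in HSPA8 replicate 2. The difference between baits, 26 genes, came from the last list and was smaller than its own spread (74 ± 0 against 48 ± 36.8, SD, n = 2, exact permutation test, two-sided, p = 1). Without that list the difference was 0.

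Most member peaks had middling or low scores among the autosomal peaks of their list. The authors' score, a whole number whose meaning is not stated, had a median over members of 7 in 3 lists and of 9 in HSPA8 replicate 2. Over all autosomal peaks it was 8 and 10 with HSPA1A and 7 and 13 with HSPA8. As a percentile of the autosomal peaks of its list, the median member stood at 46.0, 34.8, 51.6 and 38.0. Only HSPA8 replicate 1 had its median member above the middle of those peaks, and there the 2 median scores were equal, at 7. At or above the 90th percentile of the autosomal peaks the lists held 5, 3, 6 and 0 members. The difference between baits was smaller than the spread between replicates, and the lists differ in length (40.4 ± 7.98 against 44.8 ± 9.61, SD, n = 2, exact permutation test, two-sided, p = 0.667).

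Member peaks were narrow, with median widths of 44 and 43 bp in replicates 1 and 2 of HSPA1A. The corresponding HSPA8 medians were 49 and 46 bp. All autosomal peaks had medians of 41, 40, 47 and 41 bp. Members of HSPA8 were wider by 4 bp on average (43.5 ± 0.707 against 47.5 ± 2.12 bp, SD, n = 2), with p = 0.333 in the exact permutation test, the smallest possible. The autosomal medians ran the same way, 47 against 41 bp in replicate 1 and 41 against 40 bp in replicate 2. The direction was thus not particular to members. The difference for members, HSPA1A minus HSPA8, was -0.25 bp among peaks at or above the median score over all peaks of their list. It was -0.5 bp with equal numbers of top-scoring peaks. Single widths were over-used in some lists. In HSPA8 replicate 1, 14 of the 88 members were exactly 75 bp wide, 15.9% against 9.75% of its autosomal peaks. Replicate 2 of both baits had none, and HSPA1A replicate 1 had 3.13% against 3.86%. A width of 24 bp was held by 11 of 96 members of HSPA1A replicate 1, against 99 of 2048 autosomal peaks. In its replicate 2 it was 2 of 82 against 47 of 1352. With HSPA8 it was 3 of 88 against 26 of 2093 and 3 of 27 against 21 of 752. In HSPA1A replicate 2, 62.2% of members fell in a range of widths, 37 to 51 bp, against 39.8% of its autosomal peaks. The other lists ran the other way: 25% against 26.3% in HSPA1A replicate 1, and 19.3% against 26.6% and 18.5% against 27.1% with HSPA8.

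The rule set many peaks of lncRNA genes aside. Of 774 autosomal peaks on an lncRNA gene, 481 were left out because another class of gene lay under the same peak: a pseudogene under 209, a protein-coding gene under 186, a tRNA gene under 62, a snoRNA gene under 43 and a snRNA gene under 37. Hosts of small nucleolar RNAs show the effect. These genes carry snoRNAs in their introns, and 38 of the 43 autosomal peaks on 12 of them overlapped a snoRNA gene. GAS5, a host that is stabilised when growth stops, had 11 autosomal peaks, of which 1 was a member (HSPA1A replicate 1, score 6). SNHG17 kept 1 peak, in HSPA1A replicate 1 with a score of 6.

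The 293 peaks lay on 158 of the 17795 lncRNA genes on these chromosomes. By name, 96 of the genes were uncharacterised loci with 186 of the peaks, 63.5% of all members. They made up 60.8% of the genes with a member and 67.8% of all lncRNA genes on these chromosomes. A further 26 were intergenic LINC genes (35 peaks), 15 were antisense genes (19 peaks), 4 were divergent transcripts (5 peaks), 4 were microRNA hosts (13 peaks) and 3 were snoRNA hosts (4 peaks). No gene named as intronic or overlapping, of 105 listed, had a member peak. As a share of the genes in each class, microRNA hosts (4 of 72, 5.56%) and snoRNA hosts (3 of 33, 9.09%) were the most often represented, on very small counts.

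Of 31 well-studied lncRNAs listed by name, 29 are lncRNA genes on these chromosomes in the table. The list was drawn up with earlier results of these data known. Its share was therefore open to that choice and is no test of the listed genes. A member peak lay on 6 of the 29 (20.7%), against 0.888% of all 17795 lncRNA genes: MALAT1 with 16 peaks, and NEAT1, CRNDE, DLEU1, GAS5 and MIR17HG with 1 each. NEAT1, the scaffold RNA of paraspeckles, had its peak in HSPA8 replicate 1 with a score of 6. CRNDE, known for raised expression in tumours, and DLEU1, from a region deleted in leukaemia, also had theirs in that list, each with a score of 6. These peaks stood alone, in 1 list of 4. Counting peaks that the rule barred, 8 of the listed genes had an autosomal peak. The other 2 were PVT1, with 6 such peaks, and ZFAS1, a snoRNA host, with 1. RNA levels were not measured in these files, so for listed genes with no autosomal peak scarce RNA and unbound RNA cannot be told apart.

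MALAT1, an abundant RNA of nuclear speckles, was the best covered of the well-known genes. HSPA1A gave 10 peaks in replicate 1 and 1 in replicate 2, and HSPA8 gave 4 and 1. All 16 lay on its own strand, and their best scores were 11, 6, 8 and 6. The peaks spread over most of the gene (chr11:65497738-65506516, 8779 bp, plus strand). The first began 1707 bp from the start, and the last ended 770 bp before the end. Joined by overlap they made 12 regions, of which 10 were found in 1 list, 1 in 2 lists and 1 in 3 lists, at 65499626 to 65499873. No MALAT1 region was found in all 4 lists. TALAM1, an antisense transcript of the same locus, overlaps all 16 peaks but runs on the other strand.

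**Figure D2:**
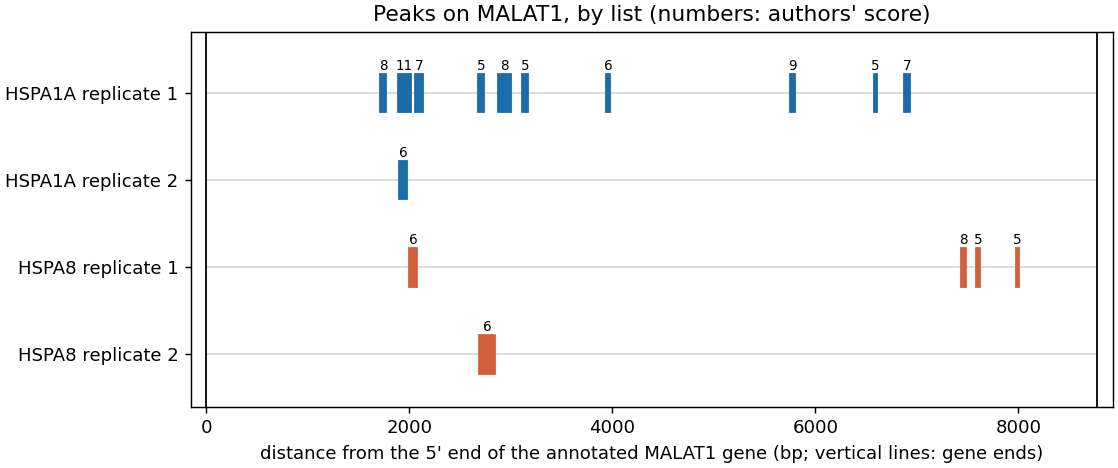
Member peaks along MALAT1, by distance from the gene start in bp, with a row per list and the authors' score above each peak. Vertical lines mark the ends of the gene. Most of the 16 peaks belong to HSPA1A replicate 1, and most stand at places where no other list has a peak.

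Peaks were joined into regions wherever they overlapped on the same strand, which gave 188 member regions. Of these, 131 (69.7%) were found in 1 list, 28 (14.9%) in 2, 15 (7.98%) in 3 and 14 (7.45%) in all 4. Among the 3551 regions of all autosomal peaks, 12.4% were in all 4 lists, 9.18% in 3 and 64.2% in 1. Member regions were thus found again in all 4 lists less often by count than autosomal regions as a whole, and no test was made of that difference. Of the regions in 1 list, 45 and 41 belonged to replicates 1 and 2 of HSPA1A, and 44 and 1 to those of HSPA8. The regions of HSPA1A replicate 2 alone were 21.8% of member regions, against 10.7% of all autosomal regions.

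Replicates of a bait shared a minority of member peaks, except from the side of the shortest list. In HSPA1A replicate 2, 35 of 82 members (42.7%, interval 32.5 to 53.5) overlapped a peak of replicate 1, where 63.2% of its autosomal peaks did. In HSPA8 replicate 2, 18 of 27 members (66.7%, interval 47.8 to 81.4) overlapped a peak of replicate 1, against 72.9% of its autosomal peaks. From the other side, 34 of 96 members of HSPA1A replicate 1 (35.4%, against 41.2%) and 18 of 88 of HSPA8 replicate 1 (20.5%, against 25.2%) were met by replicate 2. In all 4 directions the members' share was below that of the list as a whole, most clearly in HSPA1A replicate 2.

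Overlap between the baits ran from 19.8 to 77.8% of a list's members, and overlap within a bait from 20.5 to 66.7%. Of the members of HSPA1A replicate 1, 41 of 96 (42.7%, against 49.2% of autosomal peaks) overlapped HSPA8 replicate 1, and 42 of 88 members of HSPA8 replicate 1 (47.7%, against 47.8%) overlapped HSPA1A replicate 1. Of the 27 members of HSPA8 replicate 2, 21 (77.8%, against 86.3%) overlapped HSPA1A replicate 2 and 20 (74.1%, against 84.3%) overlapped HSPA1A replicate 1. Of the 82 members of HSPA1A replicate 2, 26 (31.7%, against 54.2%) overlapped HSPA8 replicate 1 and 22 (26.8%, against 48.3%) overlapped HSPA8 replicate 2. In the remaining directions, 19 of 96 members of HSPA1A replicate 1 (19.8%, against 30.5%) overlapped HSPA8 replicate 2, and 26 of 88 of HSPA8 replicate 1 (29.5%, against 33.5%) overlapped HSPA1A replicate 2. Among regions in exactly 2 lists, 13 joined replicate 1 of both baits, 5 joined replicate 2 of both baits, 7 joined both HSPA1A lists and 1 joined both HSPA8 lists.

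Of the 158 genes, 106 had a member in 1 list, 30 in 2, 10 in 3 and 12 in all 4. The 3 highest-scoring members of every list lay in genes of this group of 12. They comprise 9 uncharacterised loci, MALAT1, MIR663AHG and SPRY4-AS1, and 7 of them had exactly 1 peak in each list. The strand of 9 was known, and in 5 every peak lay on the gene's strand while in the other 4 none did.

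LOC105374754, on chromosome 2, held the highest-scoring member of every list but HSPA1A replicate 2. Its score was 238 and 132 with HSPA1A and 362 and 79 with HSPA8. The peak had the same 2 edges in all 4 lists, chr2:59322189-59322251, and lay on the plus strand while the gene (59238714 to 59389508) is on the minus strand. The strongest and most precisely repeated member was thus opposite to the annotated transcript.

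LOC101927226, on chromosome 11, held the highest-scoring member of HSPA1A replicate 2. It scored 71 and 300 with HSPA1A and 18 and 76 with HSPA8. Its region (chr11:59626978-59627018) lay on the minus strand, opposite to the gene. SPRY4-AS1, named for its position antisense to the signalling inhibitor SPRY4, scored 58 and 117 with HSPA1A and 6 and 17 with HSPA8. Its region (chr5:142394451-142394487, minus strand) was likewise opposite to the annotated gene.

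LOC124904704, on chromosome 19, had 3 regions within 228 bp, each in all 4 lists and each on the gene's strand. The first region, which holds the sequence printed above, began 31 bp before the annotated start at 35575641. It scored 179 and 22 with HSPA1A and 228 and 11 with HSPA8. The second scored 104, 17, 212 and 5, and the last scored 67, 15, 112 and 13, in the same order of lists. The first region had the highest score of the 3 in every list but HSPA8 replicate 2, where the last did.

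LOC105370062, on chromosome 12, had the most members of any gene, 19, in 6 regions within 503 bp (127165931 to 127166433, minus strand). HSPA1A gave 6 and 5 of these peaks, HSPA8 6 and 2. The highest-scoring region of each list scored 155 and 26 for HSPA1A and 235 and 20 for HSPA8, and the region at the other end scored 115 and 14 against 121 and 19. These 2 regions were the ones found in all 4 lists. The gene's strand is not in the tables used, and no promoter window covers the peaks. Their letters were therefore not read, and a part played by reads from ribosomal RNA was not tested for them either.

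**Figure D3:**
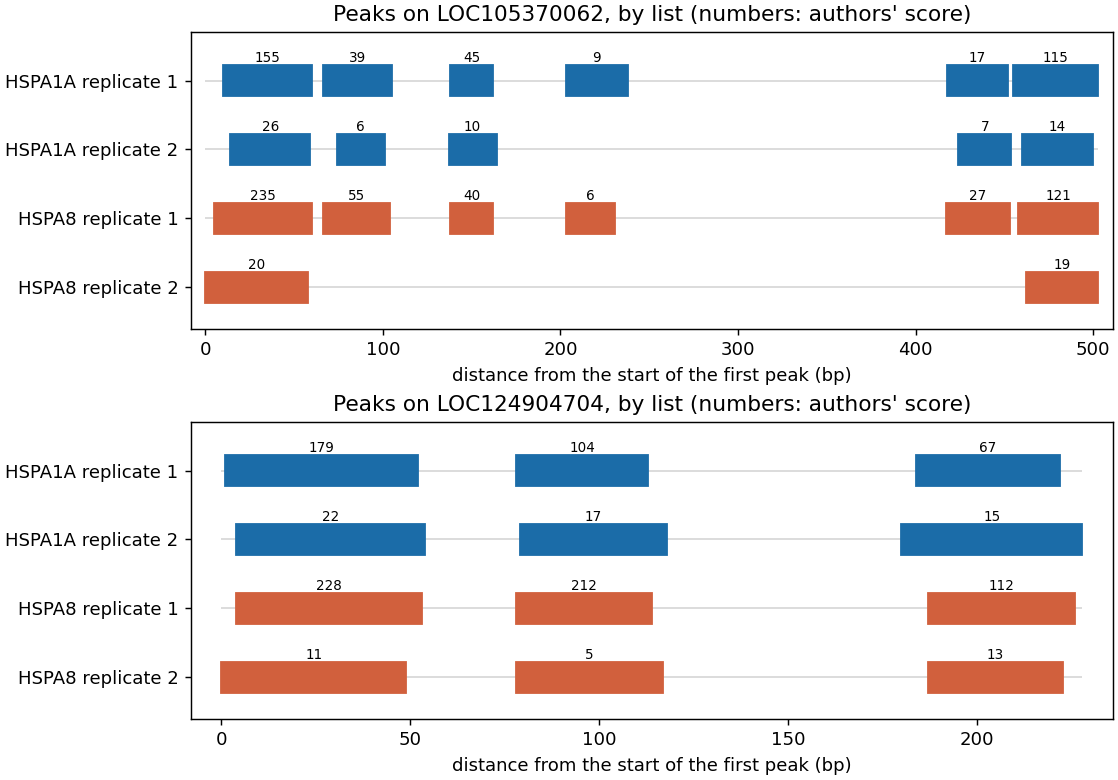
Member peaks of LOC105370062 (upper panel) and LOC124904704 (lower panel) by distance in bp from the first peak, with a row per list and the authors' score above each peak. The same places carry peaks in several lists, and in LOC124904704 each of 3 places has a peak in all 4.

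MIR663AHG, the host transcript of a microRNA on chromosome 20, had 10 members: 5 and 1 for HSPA1A, 2 and 2 for HSPA8. All lay on the gene's strand. The region on the MIR663A hairpin scored 14 and 8 for HSPA1A and 10 and 5 for HSPA8. A neighbouring region, 26208374 to 26208449, scored 24 in HSPA1A replicate 1 and had no peak in its replicate 2, and scored 34 and 6 with HSPA8. The peaks therefore stood over and beside the hairpin, within 1148 bp at the gene's start.

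LOC105378179, on chromosome 14, belongs to the members only by its biotype. All 8 of its peaks (1 and 2 for HSPA1A, 3 and 2 for HSPA8) overlapped RN7SL2, a gene for 7SL, the RNA of the signal recognition particle that RNA polymerase III transcribes. Best scores were 30, 9, 42 and 6. The class of RN7SL2 in the table is none of those that the rule bars.

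The other 4 genes found in all lists each had 1 peak a list. LOC124900392 (chr17:72226675-72226705, on the gene's strand) scored 46 and 17 for HSPA1A and 31 and 12 for HSPA8. LOC105379371, on chromosome 8, scored 14 and 44 against 9 and 15. LOC101928463 (chr6:17094056-17094094, opposite to the gene) scored 12 and 20 against 12 and 14. LOC102724340 (chr2:184425720-184425746) scored 21 and 7 against 10 and 8.

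**Figure D4:**
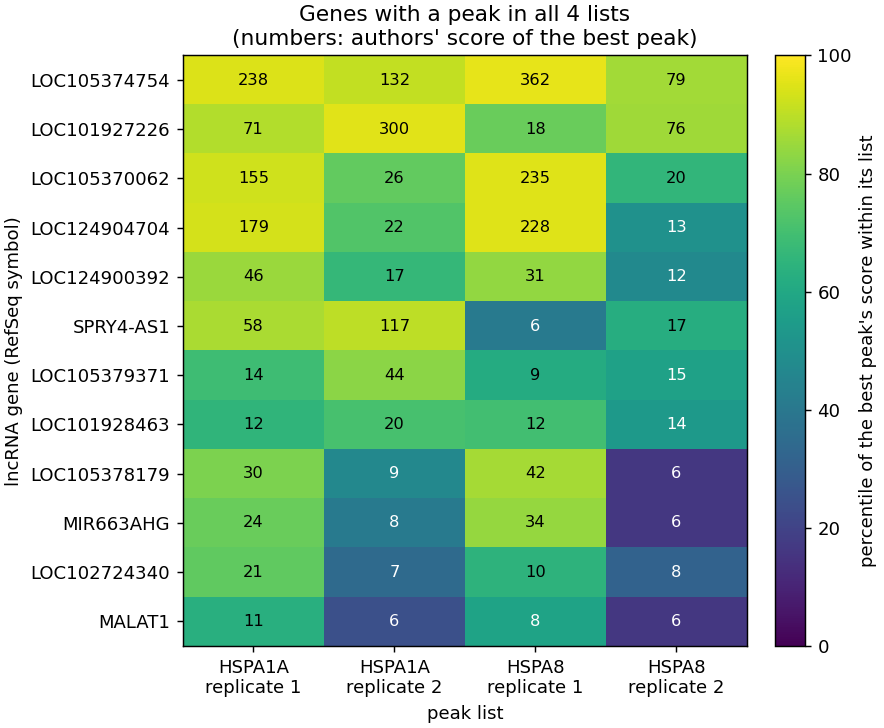
Grid of the 12 genes with a member in all 4 lists (rows) by peak list (columns). The number is the authors' score of the gene's best member peak and the colour its percentile among the autosomal peaks of that list, from 0 to 100. In every column LOC105374754 is among the top rows and MALAT1 among the lowest. The grid is read down a column, since lists differ in length and the unit of the score is not stated.

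The 14 regions found in all 4 lists belong to 11 genes. Their edges had a median spread over the 4 lists of 4 bp at the lower coordinate and 3 bp at the upper. In 3 of the 14 both edges lay within 2 bp. The spread was 20 and 26 bp for the MIR663A region and reached 189 and 250 bp for LOC105378179, where several peaks were joined.

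Of the 158 genes, 76 (48.1%) had members with HSPA1A alone and 38 (24.1%) with HSPA8 alone, most of them in a single list. By region, HSPA1A replicate 1 alone held 23.9% of member regions, against 23.4% of autosomal regions, and replicate 2 alone 21.8%, against 10.7%. HSPA8 replicate 1 alone held 23.4%, against 29.0%, and replicate 2 alone 0.532%, against 1.01%. Both HSPA1A lists alone shared 3.72%, against 2.65%, and both HSPA8 lists alone 0.532%, against 0.0563% (1 and 2 regions). Few genes were found in both lists of a bait: 7 had a member in both HSPA1A lists and in neither HSPA8 list. LOC105378198 scored 9 and 7, on the vault RNA gene VTRNA1-2, a small RNA polymerase III transcript. LINC01297-DUXAP10-NBEAP6 scored 6 and 10, LOC101928236 5 and 16, LOC107984701 5 and 15, and LOC124904475 6 and 6. For HSPA8 there was 1 such gene, SNHG10, with scores of 6 and 5, both on SCARNA13, a small RNA of Cajal bodies. HSPA8 replicate 2 held 27 members in all, which limits how many genes both HSPA8 lists can share.

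Genes in 3 lists were led by HSPA1A with HSPA8 replicate 1. Of the 15 regions in 3 lists, 11 were in both HSPA1A lists and HSPA8 replicate 1, as were 177 of the 326 autosomal regions in 3 lists. DBET, a transcript of the macrosatellite repeat at the end of chromosome 4, was among them and scored 17 and 14 for HSPA1A and 15 for HSPA8 replicate 1. LINC01019 was found in both HSPA1A lists (7 and 26) and in HSPA8 replicate 2 (14). DBET and LINC01019 were picked after their values were seen. The region of LOC105375186, chosen likewise, scored 11 and 33 for HSPA1A and 9 in HSPA8 replicate 2. LOC107987037, also so chosen, scored 23 and 7 for HSPA1A and 26 in HSPA8 replicate 1.

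Of the 28 member regions in exactly 2 lists, 64.3% were shared between the baits by replicate number. The share over the 505 such autosomal regions was 69.5%, so it was not particular to members. Replicate 1 of both baits gave the longest lists, with 2048 and 2093 autosomal peaks. The share expected from list length was not computed, so a pairing by replicate number was not tested. The examples here were chosen after their values were seen. Of the 13 regions in replicate 1 of both baits alone, LINC01344 scored highest, with 23 for HSPA1A and 30 for HSPA8. LOC105371574 scored 12 and 25, and LINC00273, an intergenic transcript of chromosome 16, scored 10 and 6. Of the 5 regions in replicate 2 of both baits alone, LOC102724020 scored highest, with 24 for HSPA1A and 16 for HSPA8. LINC00707 scored 21 and 8, and LOC107984867 scored 20 and 8.

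A strand was known for 97 of the 158 genes, and it bears on whether a peak can belong to the annotated transcript. Of 184 member peaks on those genes, 117 (63.6%, interval 56.4 to 70.2) lay on the gene's strand. Peaks on protein-coding genes alone did so in 72.4% of 1418 cases. By list the members gave 47 of 65 (72.3%), 19 of 44 (43.2%, interval 29.7 to 57.8), 40 of 58 (69.0%) and 11 of 17 (64.7%), and the protein-coding peaks 72.3%, 48.5%, 84.6% and 52.5%. HSPA1A replicate 2 had the lowest share for both classes. Without MALAT1, LOC105370062, LOC124904704, MIR663AHG and LOC105378179, 71 of 138 members (51.4%, interval 43.2 to 59.6) lay on the gene's strand. The interval takes in an even split, but every peak of known strand that was left out lay on the gene's strand. Leaving these genes out could therefore only lower the share. Genes with every peak opposite, such as LOC105374754, were kept, and the protein-coding peaks had no like removal. The lower share thus cannot tell whether the remaining genes prefer a strand. Regions in at least 2 lists gave 64 of 95 peaks (67.4%) and regions in 1 list 53 of 89 (59.6%).

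**Figure D5:**
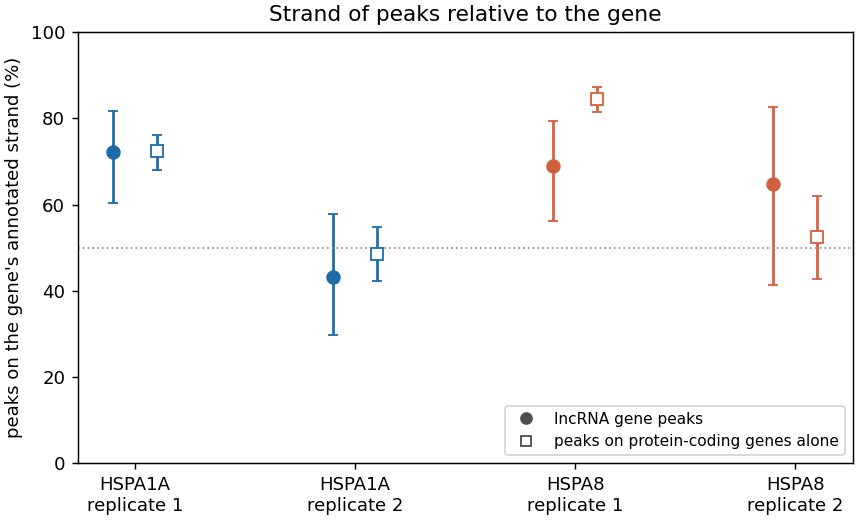
Percentage of peaks on the strand of the gene, for member peaks and for peaks on protein-coding genes alone, by list. Bars are Wilson 95% intervals over peaks, and the dotted line is at 50%. HSPA1A replicate 2 stands lowest for both, at 43.2 and 48.5%, and the other lists run from 52.5 to 84.6%.

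Genes of another biotype lay under 39 of the 293 member peaks, and 254 lay on lncRNA genes alone. The 39 were the 16 on MALAT1 with TALAM1, 8 on RN7SL2, 5 on microRNA hairpins and 4 on transcribed pseudogenes. The rest were 2 on VTRNA1-2, 2 on SCARNA13 and 2 within IGL, the immunoglobulin lambda locus as a whole. Some loci carried peaks of the same width and score in 1 list. LINC01001, LINC01002 and LOC100132287 each had a 79 bp peak of score 5 in HSPA8 replicate 1, and LOC124901673 and LOC124901677 each a 72 bp peak of score 5 there, as did CFAP20DC-DT. POLR2J2-UPK3BL1 and POLR2J3-UPK3BL2 each had a 70 bp peak of score 7 in HSPA1A replicate 1, as did LOC107984272. A further 12 genes had 75 bp peaks in HSPA8 replicate 1 in 3 groups of equal score: 6 genes with a score of 5, 4 with 6 and 2 with 7. Equal width and score thus occurred at loci with related names and at loci without, and how reads that match several places were counted is not given in the sources used here.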

How the data were processed

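Peak positions, strands and a whole-number score per peak are those the authors deposited, 1 list per replicate. What the score counts is unknown, so peaks were ranked and filtered by it list by list. Scores printed side by side for several lists are not compared. Per the submitters' processing notes, the build was GRCh38 and the tools Trim Galore 0.4.4, FastQC, STAR 2.6.0b and deepTools, with no roles named. The peak caller and its threshold are not given in the sources used here. Per the labels' protocols, random tags served to merge PCR duplicates. Read depth is unknown.

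Peaks were assigned by at least 1 bp to genes of the RefSeq GRCh38.p14 table, without strand. The table has no exons, so exonic and intronic peaks were not separated, and gene strands came from the RefSeq promoter table. A peak on several lncRNA genes went to the shortest (8 peaks). Positions are 1-based. Promoter windows of chromosome 8 were not searched.

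Members and lists were chosen with earlier results of these data known. Baits were compared over replicates by the exact two-sided permutation test (6 orders, smallest p 0.333). The p-values measure the spread between 2 biological replicates per bait. Same-numbered lists' deviations correlated at 0.145 over 188 regions. The labels tie the numbers to no shared batch, so the block was an alternative only.

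Named genes were those with a member in all 4 lists (up to 15), up to 5 per bait in both its lists alone, the 5 with most members, the 3 highest-scoring per list, and listed genes with a member. Others are printed for their sequence, their equal peaks or as marked. Alternatives were score limits, equal numbers of peaks, base pairs, strand, biotypes, overlap, denominators, single genes, replicates left out and the replicate block. The leaving out of opposite-strand peaks, of every pseudogene biotype and of 4 single genes was chosen after seeing the data. Scripts were tested on simulated lists and run in Python 3.11.15 with pandas 2.3.3, scipy 1.17.1, numpy 2.4.6 and, for figures, matplotlib 3.10.9.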

Additional observations from a re-analysis of the deposited data

Results flagged for a closer look

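Peaks on lncRNA genes of chromosome X lie outside the rule and were above the 3 counts that a count of 0 allows. There were 74 in HSPA1A replicate 1 and 78 in HSPA8 replicate 1, against 3 in HSPA1A replicate 2 and 1 in HSPA8 replicate 2. XIST, the RNA that coats the inactive X chromosome, held 73 and 1 of the HSPA1A peaks and 74 and 0 of the HSPA8 peaks, all on the minus strand. Of the XIST peaks of HSPA1A replicate 1, 48 of 73 (65.8%) overlapped one of HSPA8 replicate 1, and 49 of 74 (66.2%) did so in reverse. Their median score was 8 in HSPA1A replicate 1 and 9 in HSPA8 replicate 1, and the highest were 22 and 21. The only other chromosome X genes with such a peak, JPX, MAGEA3-DT and PTCHD1-AS, had 1, 2, 4 and 1 peaks together. Both replicate 1 lists stood apart from both replicate 2 lists here, and the reason was not tested.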

How the results depend on the processing

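Of 81 alternative values, 72 were held the same. For differences between baits that means the sign alone, since no p could pass 0.05, for overlaps a value inside the main Wilson interval, and for counts one within 1.5 times. The difference in share of member peaks, HSPA1A minus HSPA8, was positive in every alternative run, from 0.266 to 2.17 percentage points. Leaving out single replicates gave 0.790 to 2.17. It was 1.23 at or above the median score and 0.266 with equal numbers of peaks, both with p = 1 (exact permutation test). The difference in width, -4 bp, shrank to -0.25 and -0.5 bp under these settings. With the replicate block the difference in share was 1.48 (exact sign-flip test, p = 0.5, the smallest possible). No call was possible with or without the block. The difference in number of genes ran from 0 to 52 with a replicate left out and was 3.5 with equal numbers of peaks. The difference in score rank, -4.42, ran from -11.2 to 2.37 with a replicate left out and was 2.05 without LOC105370062. Among peaks at or above the median score over all peaks of their list, 13 of 22 members of HSPA1A replicate 2 (59.1%) overlapped replicate 1. For HSPA8 it was 2 of 2 members (100%), too few to tell how well such peaks repeat. In that setting 2 genes and 2 regions were in all 4 lists. With equal numbers of peaks, 7 genes were in all 4 lists. Beyond the smaller number of peaks, the cause was not tested. The number of peaks and the lack of a control bait limit what can be told apart.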
